A study of Mus musculus with 8 samples.

Results

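The comparison set ribosome-protected fragments captured by RiboLace from brains of mice with spinal muscular atrophy (SMA) against those found in an IgG pull-down from control brains. It used 3 of the 8 libraries of the series, chosen by their labels: RiboLace replicates 1 and 2 and the only IgG library. The question is which footprint signals of RiboLace exceed what beads and a non-specific antibody carry along. Each of the 21874 genes with a protein-coding transcript was represented by its coding transcript with the highest sum of library-scaled counts.

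All brains were taken at postnatal day 5 from the Taiwanese SMA mouse on an FVB background. The RiboLace libraries came from early symptomatic Smn-/-; SMN2tg/0 brains, which lack mouse Smn and live on the human SMN2 transgene. The IgG library came from a phenotypically normal Smn+/-; SMN2tg/0 littermate brain, so both groups carry SMN2. The other libraries, used here to estimate the spread and shown beside the results, are 2 from polysomes of Smn-/-; SMN2tg/0 brains and 3 from SMN immunoprecipitates of Smn+/-; SMN2tg/0 brains.

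Spinal muscular atrophy is a motor neuron disease caused by too little survival motor neuron protein, SMN. In ribosome profiling, RNase digests the RNA outside ribosomes, and the fragments left inside them are sequenced as a record of what was being translated. RiboLace enriches actively translating ribosomes with a puromycin-like bait fixed to beads, since puromycin enters the active site of an elongating ribosome. An IgG pull-down has no intended target, and what it recovers is material that sticks to antibody, beads or tubes, or that sediments with the ribosomes.

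The IgG library is the control of the SMN immunoprecipitation and not a RiboLace capture without bait. According to the labels' protocols, the lysate for the antibody pull-downs was cleared of nuclei and mitochondria and digested with RNase I, the ribosomes were pelleted, and Protein G beads were then added. The lysate for RiboLace was clarified by centrifugation. Genotype, capture method and lysate handling therefore differ together between RiboLace and IgG and cannot be told apart. The libraries hold shares of reads, so a gene higher in RiboLace takes a larger share there, whatever amount of RNA each capture recovered. In whole brain, a smaller share can come from fewer cells of a type or from less RNA per cell, and these cannot be told apart either.

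Depth limited the comparison on the RiboLace side. RiboLace replicates 1 and 2 held 47846 and 39375 reads on coding genes, against 206690 in IgG. One RiboLace read was thus worth 20.9 or 25.4 counts per 1000000 coding reads (CPM), against 4.84 CPM for an IgG read, and a floor of 3 counts stood at 62.7 and 76.2 CPM in RiboLace against 14.5 CPM in IgG. Intervals and floors cover counting error only. RiboLace replicates 1 and 2 differed by little more than sampling noise (chi-square of 1.05 per gene over 2115 genes, p = 0.0497) and were kept as 2 samples because the labels call them biological replicates. The same measure was 2.69 and 2.37 per gene between each RiboLace library and IgG. SMN replicate 2 stood apart from the other antibody pull-downs, with a chi-square of 3.70 per gene against IgG where SMN replicates 1 and 3 had 1.42 and 1.26.

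The reads matched brain in both groups. Neuron markers took 1.25% and 1.19% of coding reads in RiboLace and 0.979% in IgG, and all 10 had a read. Astrocyte and radial glia markers, also all 10 with reads, took 0.702% and 0.637% in RiboLace and 0.438% in IgG. Microglia markers took 0.0272% and 0.0279% in RiboLace against 0.0121% in IgG, with Ctss at 0 in all 3 libraries, and endothelial markers 0.0209% and 0.0203% against 0.0392%. The targeted gene, Smn1, had 2 and 0 reads in the RiboLace libraries of Smn-/- brains and 6 in IgG. That equals 40.3 CPM (95% exact Poisson interval 4.88 to 146) and 0 CPM (up to 90.5) in RiboLace, against 29.3 CPM (10.7 to 63.7) in IgG. The deeper polysome libraries of Smn-/- brains held 51 and 77 Smn1 reads, or 30.8 and 34.6 CPM, near the IgG value. Reads on Smn1 therefore do not check the genotype labels here.

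The broadest difference between RiboLace and IgG lay in the length of the coding region. Messages with a coding region under 600 bases, such as those of histones, globins, metallothioneins and small respiratory subunits, took 16.5% and 16.1% of coding reads in RiboLace and 9.82% in IgG. The 95% exact binomial intervals were 16.1 to 16.8 and 15.7 to 16.5 for RiboLace and 9.69 to 9.95 for IgG. Messages with 4800 bases or more took 6.07% and 6.36% in RiboLace, against 13.0% in IgG, 2.09 times as much in IgG. These shares cover every coding gene, without a filter on low counts.

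Between these ends the change was graded. Coding regions of 600 to under 1200 bases took 26.1% and 25.2% of reads in RiboLace against 19.2% in IgG. Those of 1200 to under 2400 bases took about the same share in each library, 35.9% and 36.3% in RiboLace and 36.6% in IgG. From 2400 bases upward IgG held the larger share, with 15.5% and 16.1% in RiboLace against 21.4% in IgG at 2400 to under 4800 bases and 5.28% and 5.48% against 10.6% at 4800 to under 9600 bases. Coding regions of 9600 bases or more, the class of dynein heavy chain and the giant cytoskeletal linkers, took 0.792% and 0.881% in RiboLace and 2.42% in IgG. The mean coding length behind a read was 1849 and 1893 bases in RiboLace and 2581 bases in IgG.

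**Figure D1:**
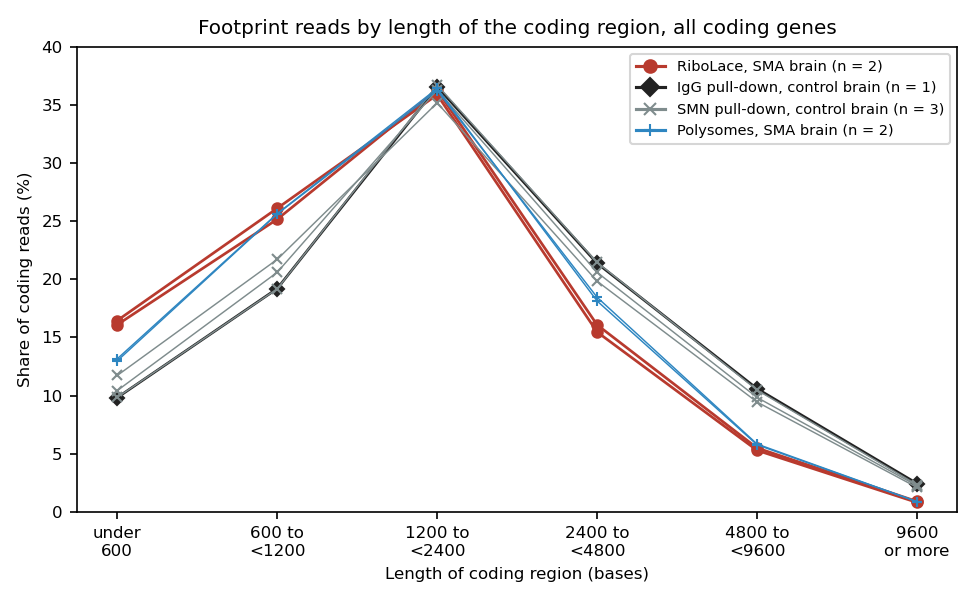
Share of coding reads (percent) in 6 classes of coding-region length (bases), with 1 line per library. Both RiboLace lines lie above the IgG line under 1200 bases and below it from 2400 bases, and the polysome lines run near RiboLace from 4800 bases while the SMN pull-downs run near IgG.

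The other libraries of the series split in a like way for the longest messages and less clearly elsewhere. For coding regions of 4800 bases or more, polysomes held 6.62% and 6.69%, close to the RiboLace shares, and the SMN immunoprecipitates held 12.1% ± 0.633 (SD, n = 3), close to IgG. Under 600 bases polysomes held 13.2% and 13.0%, between the 16.5% and 16.1% of RiboLace and the 9.82% of IgG. At 2400 to under 4800 bases polysomes held 18.1% and 18.5%, also between RiboLace and IgG. For coding regions under 1200 bases the shares were 42.6% and 41.3% in RiboLace, 38.8% and 38.6% in polysomes and 31.2% ± 2.21 (SD, n = 3) in the SMN immunoprecipitates, against 29.0% in IgG. RiboLace and polysomes share the SMA genotype and lack the antibody step, and the antibody pull-downs share the control genotype, so genotype and capture cannot be told apart in this split.

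Of the coding genes, 1412 had enough reads to be tested one by one, which took about 209 CPM in at least 1 of the 3 libraries. Of these, 528 passed through RiboLace alone and 220 through IgG alone. A gene that passed through a single group was picked for a high value there. Counts and medians over tested genes therefore describe them and are not independent support. The same holds for the fold changes and adjusted p-values of such genes. Passing through IgG took about 43.2 reads. Of the called genes named below, Mt1, Ndufc2, Atp5g3, Mapre1, Hsd3b2, Gm10800, mt-Nd2, mt-Nd4 and mt-Nd6 passed through RiboLace alone. Col3a1, Col4a1, Dst, Kmt2d, Huwe1, Herc1, Rnf225 and Erdr1 passed through IgG alone. Relative to IgG, 19 genes were higher in RiboLace (1.35% of those tested) and 26 were lower (1.84%), 45 in all (3.19%), at an adjusted p under 0.05 in edgeR's quasi-likelihood test. With 1 IgG library, its spread was taken to be like that of the other groups. The median log2 fold change over all tested genes was 0.10. Of the 1412 values, 768 were positive, the share to set beside the counts of positive members in the lists below.

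The number of calls depended on single libraries. Without SMN replicate 2, 172 genes were higher and 235 lower in RiboLace. Without RiboLace replicate 1, 1 gene was higher (Gm10800) and 2 were lower (Col3a1 and Dbn1), and the counts were the same without RiboLace replicate 2. Without SMN replicates 1 or 3 the counts were 6 and 9 higher and 17 and 21 lower, and without polysome replicates 1 or 2 they were 12 and 8 higher and 30 and 24 lower. With genes chosen on polysome reads alone, a setting added after seeing the data, 3 were higher and 11 lower.

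Gene by gene, log2 fold changes were lower the longer the coding region. Spearman's rho across the 1412 genes was -0.67 for the coding region, -0.18 for the 3′ UTR and -0.11 for the 5′ UTR. These genes share the same 3 libraries and are not independent, so the coefficients are descriptions. The median log2 fold change was 0.86 for coding regions under 600 bases, 0.48 at 600 to under 1200, 0.03 at 1200 to under 2400, -0.53 at 2400 to under 4800, -1.10 at 4800 to under 9600 and -1.78 at 9600 bases or more. None of the 28 tested genes with 9600 bases or more had a positive value. The 19 genes higher in RiboLace had a median coding length of 784 bases, and the 26 lower ones had 8063.5 bases, against 1428 bases for all tested genes.

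**Figure D2:**
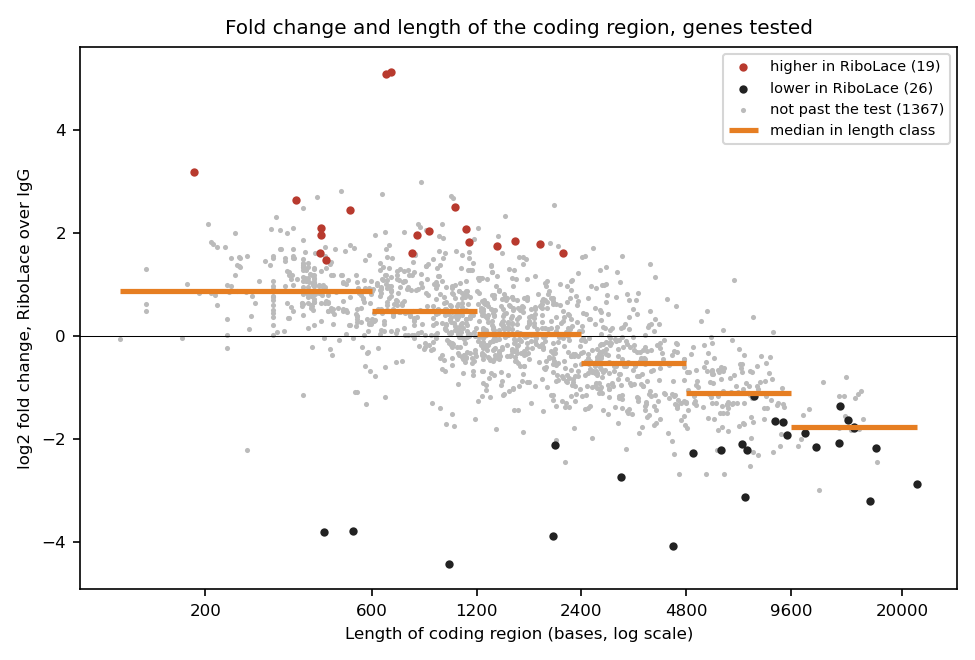
The log2 fold change of RiboLace over IgG (vertical) against the length of the coding region in bases (horizontal, log scale) for the 1412 genes tested. Orange bars mark the median of each length class, which steps down to -1.78 at 9600 bases or more, and the 19 genes higher in RiboLace all have coding regions of 2124 bases or less.

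Many of the genes lower in RiboLace encode long cytoskeletal proteins. The giant linkers, spectrins and ankyrins, which tie the membrane, actin and microtubules together, took 0.305% and 0.302% of coding reads in RiboLace and 1.61% in IgG, 5.29 times as much in IgG. Of the 15 in the table, 9 were tested, 6 were lower and none was higher. Of the tested members, Dst, Ahnak and Plec passed the filter through IgG alone, which favoured a negative value. The median log2 fold change of the 9 was -2.44, which is 1.11 below the median of their own length classes. Polysomes held 0.232% and 0.221% for this list, and SMN replicates 1 to 3 held 1.28%, 0.866% and 1.54%.

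Sptbn1, the main beta-spectrin of non-erythroid cells, had 30 and 28 reads in RiboLace and 1152 in IgG. That equals 605 and 687 CPM in RiboLace against 5617 CPM in IgG, with 490 ± 1.41 CPM in polysomes (SD, n = 2) and 4068 ± 1610 CPM in the SMN immunoprecipitates (SD, n = 3). Both RiboLace libraries lay far below IgG (log2 ratio of RiboLace over IgG -3.12, SE 0.43, adjusted p = 0.00324). The alpha-spectrin Sptan1, its partner in the spectrin tetramer, had 746 and 760 CPM in RiboLace against 2404 CPM in IgG and did not pass the test (adjusted p = 0.103).

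The ankyrins bind spectrin and hold channels and adhesion molecules in place along axons. Ank2 had 242 and 245 CPM in RiboLace against 1638 CPM in IgG (log2 ratio -2.75, SE 0.39, adjusted p = 0.00324). Ank3, which organises the axon initial segment, had 242 and 172 CPM in RiboLace against 658 CPM in IgG (log2 ratio -1.65, adjusted p = 0.0442). The Ank2 transcript with most reads has an annotated coding region of only 3117 bases, so this gene counts among the middle lengths here although the longest ankyrin-B isoforms are giant.

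Macf1 and Dst encode spectraplakins, which crosslink actin and microtubules and guide growing axons. Macf1, with the longest coding region tested (22062 bases), had 202 and 294 CPM in RiboLace against 1804 CPM in IgG (log2 ratio -2.88, SE 0.57, adjusted p = 0.0207). Dst had 4 and 7 reads in RiboLace against 233 in IgG, or 80.6 and 172 CPM against 1136 CPM (log2 ratio -3.21, SE 0.53, adjusted p = 0.0102). SMN replicate 2 lay nearer RiboLace than IgG for both, with 501 CPM of Macf1 and 455 CPM of Dst. SMN replicates 1 and 3 lay nearer IgG, with 1196 and 1564 CPM of Macf1 and 795 and 962 CPM of Dst. Myh10, the non-muscle myosin IIB heavy chain, had 302 and 392 CPM in RiboLace against 1609 CPM in IgG (log2 ratio -2.22, SE 0.38, adjusted p = 0.0102). In each of these genes both RiboLace libraries were below IgG. Dync1h1, the heavy chain of cytoplasmic dynein that drives retrograde axonal transport, had 1189 and 1226 CPM in RiboLace against 3749 CPM in IgG (log2 ratio -1.63, adjusted p = 0.0138), which is 0.14 above the median of its length class.

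Dbn1, the actin-binding drebrin of growth cones and dendritic spines, shared the smallest adjusted p of the comparison with Col3a1. It had 14 and 11 reads in RiboLace against 837 in IgG, or 282 and 270 CPM against 4081 CPM (log2 ratio -3.88, SE 0.37, adjusted p = 0.000246). Its coding region is 1983 bases, and the median log2 fold change of its length class was 0.03. The SMN immunoprecipitates held 2882 ± 686 CPM (SD, n = 3) and polysomes 350 ± 22.2 CPM (SD, n = 2). The rest of the growth cone and stathmin list did not follow it. The list had 21 of 21 members tested, 1 lower (Dbn1), none higher, 15 with a positive value and a median of 0.42. Stmn2, which destabilises microtubules in growing neurites, had 1894 and 1987 CPM in RiboLace against 1448 CPM in IgG (log2 ratio 0.42, SE 0.30, adjusted p = 0.370).

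A pair of collagens was lower too. Col3a1, a collagen of meninges and vessel walls, had 4 reads in each RiboLace library and 308 in IgG, which equals 80.6 and 98.1 CPM in RiboLace against 1502 CPM in IgG (log2 ratio -4.08, SE 0.41, adjusted p = 0.000246). Polysomes held 151 ± 26.5 CPM (SD, n = 2) and the SMN immunoprecipitates 1231 ± 112 CPM (SD, n = 3). Col4a1, a chain of basement membrane collagen, had 101 and 172 CPM in RiboLace against 648 CPM in IgG (log2 ratio -2.28, SE 0.42, adjusted p = 0.0134). Col1a1 and Col4a2 were also below IgG in both RiboLace libraries without passing the test (adjusted p = 0.0939 and 0.127). Col1a2 did not follow, with 101 and 368 CPM in RiboLace against 307 CPM in IgG (log2 ratio -0.45, SE 0.63, adjusted p = 0.653). Col3a1 and Dbn1 were called in all 19 settings run.

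The matrix and secreted glycoprotein list that holds these collagens took 0.665% and 0.759% of coding reads in RiboLace and 1.25% in IgG. Of its 23 members, 18 were tested, 2 were lower and none was higher, with a median of -1.37. Sparcl1, an astrocyte-secreted protein, ran the other way with 2217 and 1815 CPM in RiboLace against 580 CPM in IgG and missed the test (adjusted p = 0.0613). The meninges and fibroblast markers, 6 genes of which Col3a1 is one, took 0.0564% and 0.112% in RiboLace against 0.316% in IgG, and 1 of the 6 had no RiboLace read. The part of meningeal tissue in the collagen values was not tested.

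Other genes lower in RiboLace encode long proteins of ubiquitin transfer, signalling and chromatin. The HECT ubiquitin ligase Huwe1 had 161 and 196 CPM in RiboLace against 746 CPM in IgG (log2 ratio -2.07, adjusted p = 0.0354). Herc1 and Herc2, also large HECT-domain proteins, had log2 fold changes of -1.79 and -1.77, against a median of -1.78 in their length class. The histone methyltransferase Kmt2d had 80.6 and 123 CPM in RiboLace against 453 CPM in IgG (log2 ratio -2.18, SE 0.44, adjusted p = 0.0207). Chromatin regulators with long coding regions had 23 members in the table, 11 tested and 1 lower, with none positive and a median of -1.04. Relative to their length classes that median was 0.06, so as a list they lay where genes of their length lay. Fasn, fatty acid synthase, had 1370 and 1177 CPM in RiboLace against 2882 CPM in IgG (log2 ratio -1.17, adjusted p = 0.0475).

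A few short genes were also lower. Rnf225, a RING finger gene, had 1 and 0 reads in RiboLace against 50 in IgG (20.2 and 0 CPM against 244 CPM, adjusted p = 0.0412). Erdr1 had 1 and 4 reads in RiboLace against 161 in IgG (20.2 and 98.1 CPM against 785 CPM, adjusted p = 0.00807). Both were also sparse in polysomes, at 4.06 ± 0.613 and 13.7 ± 1.51 CPM (SD, n = 2). The antibody pull-downs thus held the larger shares, with 118 ± 31.6 CPM for Rnf225 and 257 ± 92.8 CPM for Erdr1 in the SMN immunoprecipitates (SD, n = 3). For Rnf225 the called fold rests on a single RiboLace read.

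Among genes higher in RiboLace, those of the mitochondrial genome were the list with most calls. Mitochondrial DNA encodes core subunits of the respiratory chain and ATP synthase, and mitochondria translate them on their own ribosomes. The 13 genes took 0.855% and 1.15% of coding reads in RiboLace and 0.300% in IgG, a ratio of 3.33. Polysomes held 0.874% and 0.866% and SMN replicates 1 to 3 held 0.171%, 0.179% and 0.152%. Of the 13, 12 were tested, 7 were higher and none was lower, and all 12 values were positive with a median of 1.76. Relative to their length classes the median was 1.32. Of the tested genes, mt-Nd2, mt-Nd4, mt-Nd4l, mt-Nd6, mt-Atp6 and mt-Atp8 passed the filter through RiboLace alone, which favoured a positive value. The shares over all 13 genes do not depend on that filter.

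**Figure D3:**
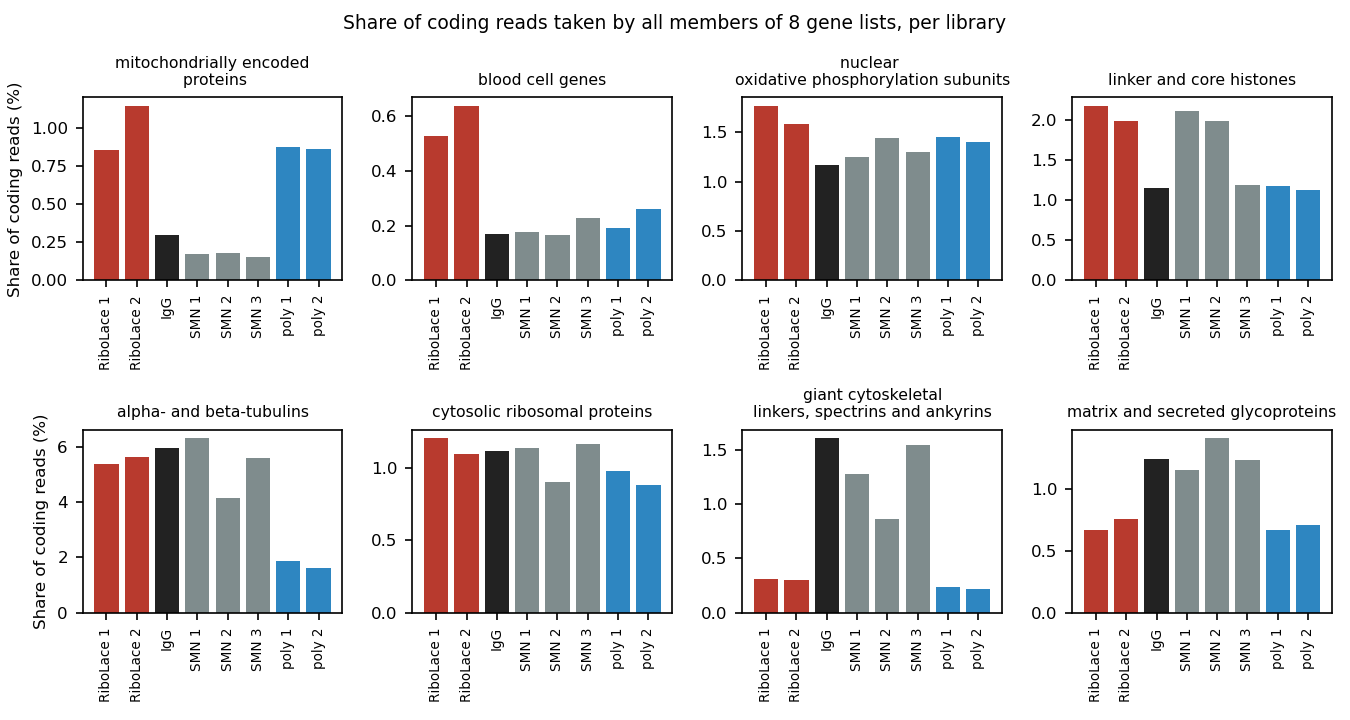
Share of coding reads (percent, bars from 0) taken by all members of 8 gene lists in each of the 8 libraries, RiboLace in red and IgG in black. Mitochondrially encoded and blood genes stand 2.85 to 3.82 times as high in each RiboLace library as in IgG, tubulins about level, and giant linkers, spectrins and ankyrins at 0.305% and 0.302% in RiboLace against 1.61% in IgG.

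mt-Co1, the catalytic subunit of cytochrome c oxidase, had 148 and 142 reads in RiboLace and 184 in IgG. That equals 2982 and 3483 CPM in RiboLace against 897 CPM in IgG (log2 ratio 1.85, SE 0.33, adjusted p = 0.0134), with 2164 ± 43.2 CPM in polysomes (SD, n = 2). mt-Cytb, the cytochrome b of complex III, had 887 and 1300 CPM in RiboLace against 307 CPM in IgG (log2 ratio 1.82, SE 0.43, adjusted p = 0.0442). The complex I subunit mt-Nd5 had 1128 and 1594 CPM in RiboLace against 395 CPM in IgG (log2 ratio 1.78, SE 0.42, adjusted p = 0.0442). Both RiboLace libraries exceeded IgG in each of these.

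Among the other complex I subunits, mt-Nd2 had 463 and 245 CPM in RiboLace against 63.4 CPM in IgG (log2 ratio 2.51, SE 0.59, adjusted p = 0.0442). mt-Nd6, the subunit encoded on the light strand, had 343 and 859 CPM in RiboLace against 107 CPM in IgG (log2 ratio 2.45, SE 0.54, adjusted p = 0.0407), and RiboLace replicate 2 was well above replicate 1. mt-Nd4 and mt-Co3 had log2 fold changes of 1.75 and 1.62. The other 5 tested genes did not pass, and mt-Nd1 was nearly level with 242 and 343 CPM in RiboLace against 244 CPM in IgG (log2 ratio 0.24, SE 0.39, adjusted p = 0.695). By protocol, the antibody lysates were cleared of mitochondria before pull-down, yet IgG still held reads on mitochondrial ribosomal RNA. Without TMM scaling, mt-Rnr2 had 43724 and 50794 CPM in RiboLace against 33693 CPM in IgG (ratio of the means 1.40). For mt-Rnr1 the values were 20023 and 24533 CPM against 18738 CPM (ratio 1.19). The share of the 13 protein genes had a ratio of 3.33. How completely mitochondria were removed was not tested. The part of the clearing step in these values cannot be told apart from capture and genotype.

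Of the respiratory chain subunits encoded in the nucleus, 2 rose. The list took 1.77% and 1.59% of coding reads in RiboLace and 1.17% in IgG. Of 85 members, 37 were tested, 2 were higher, none was lower and 28 were positive, with a median of 0.50. Relative to their length classes that median was -0.02. Most tested members, such as Ndufc2 with 8 IgG reads and Cox8a with 32, passed the filter through RiboLace alone, which favoured a positive value. The shares over all 85 members do not depend on that filter. Ndufc2, an accessory subunit of complex I, had 14 and 8 reads in RiboLace against 8 in IgG, or 282 and 196 CPM against 39.0 CPM (log2 ratio 2.63, SE 0.60, adjusted p = 0.0442). Atp5g3, a gene for the c-ring of ATP synthase, had 484 and 564 CPM in RiboLace against 171 CPM in IgG (log2 ratio 1.61, SE 0.38, adjusted p = 0.0442).

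Globin messages of red blood cells were higher in RiboLace. Hba-a2, an alpha-globin gene, had 68 reads in each RiboLace library and 73 in IgG, which equals 1370 and 1668 CPM in RiboLace against 356 CPM in IgG (log2 ratio 2.09, SE 0.38, adjusted p = 0.0134). Its near-identical copy Hba-a1, with which it may share reads, had 1290 and 1545 CPM in RiboLace against 366 CPM in IgG. The beta-globin Hbb-bs had 1249 and 1521 CPM in RiboLace against 497 CPM in IgG (log2 ratio 1.47, adjusted p = 0.0442), and Hbb-bt missed the threshold (log2 ratio 1.46, adjusted p = 0.0507).

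The 7 blood cell genes together took 0.527% and 0.637% of coding reads in RiboLace and 0.168% in IgG. Of these 7, 3 had no RiboLace read, and Slc4a1 had no read in any of the 3 libraries. Polysomes of the same genotype held 0.191% and 0.260%, below both RiboLace libraries. The amount of blood left in each brain was not tested, and genotype and capture cannot be told apart in this value.

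Several single genes also rose. Mt1, a metallothionein that binds zinc and copper, had 16 and 12 reads in RiboLace against 7 in IgG, or 322 and 294 CPM against 34.1 CPM (log2 ratio 3.17, SE 0.78, adjusted p = 0.0493). Mapre1, the end-binding protein EB1 that tracks growing microtubule tips, had 443 and 270 CPM in RiboLace against 92.6 CPM in IgG (log2 ratio 1.97, SE 0.46, adjusted p = 0.0442). Ncl, the nucleolar protein nucleolin, had 584 and 785 CPM in RiboLace against 224 CPM in IgG (log2 ratio 1.60, SE 0.36, adjusted p = 0.0412). Polysomes held 204 ± 28.8 CPM of Mt1, 318 ± 4.60 CPM of Mapre1 and 439 ± 26.2 CPM of Ncl (SD, n = 2). For Mt1 and Ncl these lie between both RiboLace libraries and IgG, and for Mapre1 between RiboLace replicates 1 and 2.

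For a second set, polysomes did not hold the level found in RiboLace. Tmem38b, which encodes the cation channel TRIC-B of the endoplasmic reticulum, had 1048 and 1349 CPM in RiboLace against 293 CPM in IgG (log2 ratio 2.03, SE 0.36, adjusted p = 0.0127). Polysomes held only 36.4 ± 1.16 CPM of it (SD, n = 2). Hsd3b2, a steroid dehydrogenase gene, had 12 reads in each RiboLace library against 13 in IgG, or 242 and 294 CPM against 63.4 CPM (log2 ratio 2.07, adjusted p = 0.0442), with 4.36 ± 0.186 CPM in polysomes. The largest excess with over 10 reads per RiboLace library belonged to a predicted gene, Gm10800, named here after its values were seen. It had 49 and 41 reads in RiboLace against 6 in IgG, or 987 and 1006 CPM against 29.3 CPM (log2 ratio 5.08, SE 0.64, adjusted p = 0.00193), and polysomes held 3.15 ± 1.89 CPM (SD, n = 2). The sources used here do not give the rule for reads that match several places.

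The calls of genes higher in RiboLace depended on the settings, counted over those that gave each gene a value. mt-Co1, Hba-a1 and Hba-a2 were called in 17 of 19 and Tmem38b in 16 of 18. mt-Nd6 was called in 12 and mt-Nd2 in 11 of 18, and mt-Cytb in 12 and mt-Nd5 in 11 of 19. Mt1 was called in 9 of 18, Hbb-bs in 9 of 19, mt-Nd4 in 8 of 18, Ndufc2 and Mapre1 in 7 of 18, Atp5g3 in 6 of 18 and Hsd3b2 in 4 of 17.

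**Figure D4:**
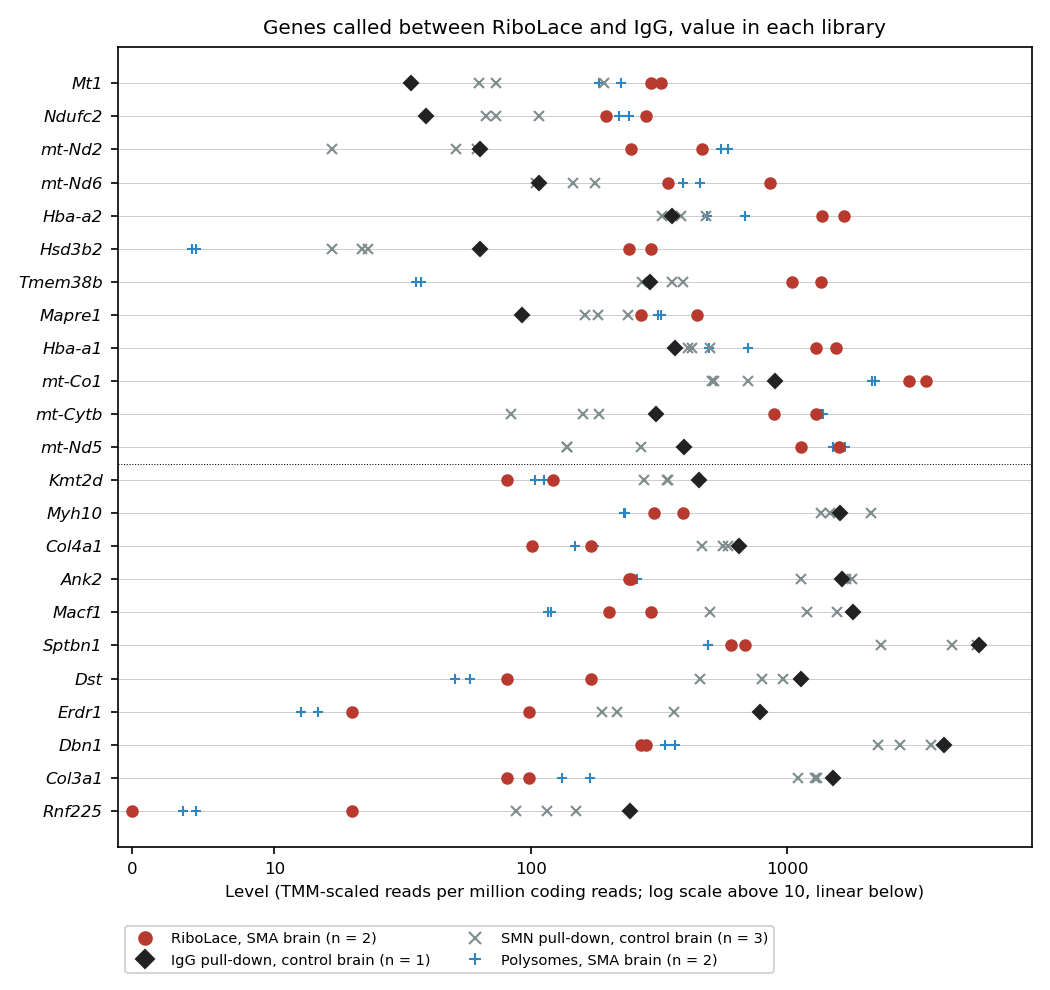
Level in each library (TMM-scaled CPM, log scale above 10) of 23 genes with the largest changes, 12 higher and 11 lower in RiboLace, ordered by fold change with the highest at the top. As the rule for naming them asked, both RiboLace libraries (red circles) lie on the same side of IgG (black diamond), and polysomes (blue) lie far left of RiboLace for Tmem38b and Hsd3b2.

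The genes with most reads in RiboLace were tubulins, the subunits of microtubules, and none of them exceeded IgG past the test. Tubb2b had 442 and 381 reads in RiboLace and 1983 in IgG, which equals 8906 and 9345 CPM in RiboLace against 9669 CPM in IgG (log2 ratio -0.08, SE 0.26, adjusted p = 0.845). Tuba1a had 8624 and 10008 CPM in RiboLace against 10912 CPM in IgG (log2 ratio -0.23, SE 0.38, adjusted p = 0.713). Tubb2a had 8141 and 8266 CPM in RiboLace against 8762 CPM in IgG. Tuba1c and Tuba1b were also lower on average in RiboLace without passing the test (log2 fold changes of -0.44 and -0.37). Tubb5 had 5682 and 5519 CPM in RiboLace against 4964 CPM in IgG (log2 ratio 0.17, SE 0.27, adjusted p = 0.687), and its sign turned with no filter (-0.13) and with a minimum count of 50 (-0.0378).

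Together the 15 alpha- and beta-tubulins took 5.38% and 5.64% of coding reads in RiboLace and 5.96% in IgG. All 11 tested members missed the test, 3 had positive values and the median was -0.10. Polysomes held 1.85% and 1.62%, less than either capture. Near-identical tubulin genes may share reads here, which was not measured, so single members and sums over them are uncertain. A missed test does not show that the levels are alike, and the standard errors of the 6 named genes were 0.26 to 0.40 on the log2 scale.

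Histones took a larger share in RiboLace without any single gene passing the test. The 83 linker and core histone genes took 2.18% and 1.99% of coding reads in RiboLace and 1.16% in IgG. Of 58 tested, none was called and 57 had positive values, with a median of 0.90, which is 0.04 above the median of their length classes. SMN replicates 1 and 2 held 2.12% and 1.99% and SMN replicate 3 held 1.20%, so the antibody pull-downs differed among themselves nearly as much as RiboLace and IgG did. Of all tested genes with coding regions under 600 bases, 230 of 251 had positive values, so the histone count lay near that of short genes. Histone copies may share reads as well.

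No gene of the translation machinery was called. The 86 cytosolic ribosomal proteins took 1.20% and 1.09% of coding reads in RiboLace and 1.11% in IgG. Of 27 tested, none was called and 15 were positive, and the median was 0.10, the same as over all tested genes. Because ribosomal proteins have short coding regions, this median lay 0.52 below that of their length classes. Elongation factors took 0.441% and 0.523% in RiboLace against 0.648% in IgG, with 95% intervals up to 0.505 and 0.599 in RiboLace and starting at 0.614 in IgG. Of 5 tested, 1 was positive and the median was -0.38. Initiation factors had a median of 0.03 over 16 tested and aminoacyl-tRNA synthetases 0.11 over 6. Each of these list medians changed sign over the settings that gave one. They ranged from -0.31 to 0.16 for ribosomal proteins and from -0.60 to 0.05 for elongation factors. The ranges were -0.45 to 0.25 for initiation factors and -0.43 to 0.26 for synthetases.

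Lists of neural function differed in sign with the length of their members. Synaptic vesicle and release genes had 21 of 24 tested, none called, 14 positive and a median of 0.42. Membrane adhesion and axon guidance receptors, which have long coding regions, took 1.38% and 1.49% in RiboLace against 1.82% in IgG. They had 28 of 36 tested, none called, 6 positive and a median of -0.67, which is 0.29 above the median of their length classes. Microtubule-associated proteins and motors had 17 of 20 tested, 1 higher (Mapre1), 1 lower (Dync1h1) and a median of -0.50. Map1b, the major microtubule-associated protein of growing axons, had 4695 and 5225 CPM in RiboLace against 8021 CPM in IgG (log2 ratio -0.69, SE 0.28, adjusted p = 0.150).

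RNA-processing proteins lay above the median of all genes without a call. SR and hnRNP proteins, which bind and splice RNA, took 0.880% and 0.998% in RiboLace against 0.678% in IgG, with 20 of 38 tested, 15 positive and a median of 0.75. The SMN complex and Sm proteins, the assembly machinery of splicing particles that SMN belongs to, took 0.205% and 0.223% in RiboLace against 0.128% in IgG. Only 4 of their 22 members were tested, all with positive values and none called. Of these 4, Snrpd3, Snrpd2 and Strap, with 9, 15 and 33 IgG reads, passed the filter through RiboLace alone, which favoured a positive value. The shares over all 22 members do not depend on that filter. The median of the tested members was 1.23 and ranged from -0.05 to 1.59 over the settings that gave one. Neuron markers had 9 of 10 tested, 7 positive and a median of 0.42, and astrocyte and radial glia markers had 10 of 10 tested, 8 positive and a median of 0.51, again with none called. Glycolytic enzymes (median -0.13 over 13 tested), cytosolic chaperones and CCT subunits (-0.43 over 13) and endoplasmic reticulum chaperones (0.13 over 11) had no call either. The median of the endoplasmic reticulum chaperones ranged from -0.18 to 0.41 over the settings that gave one.

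**Figure D5:**
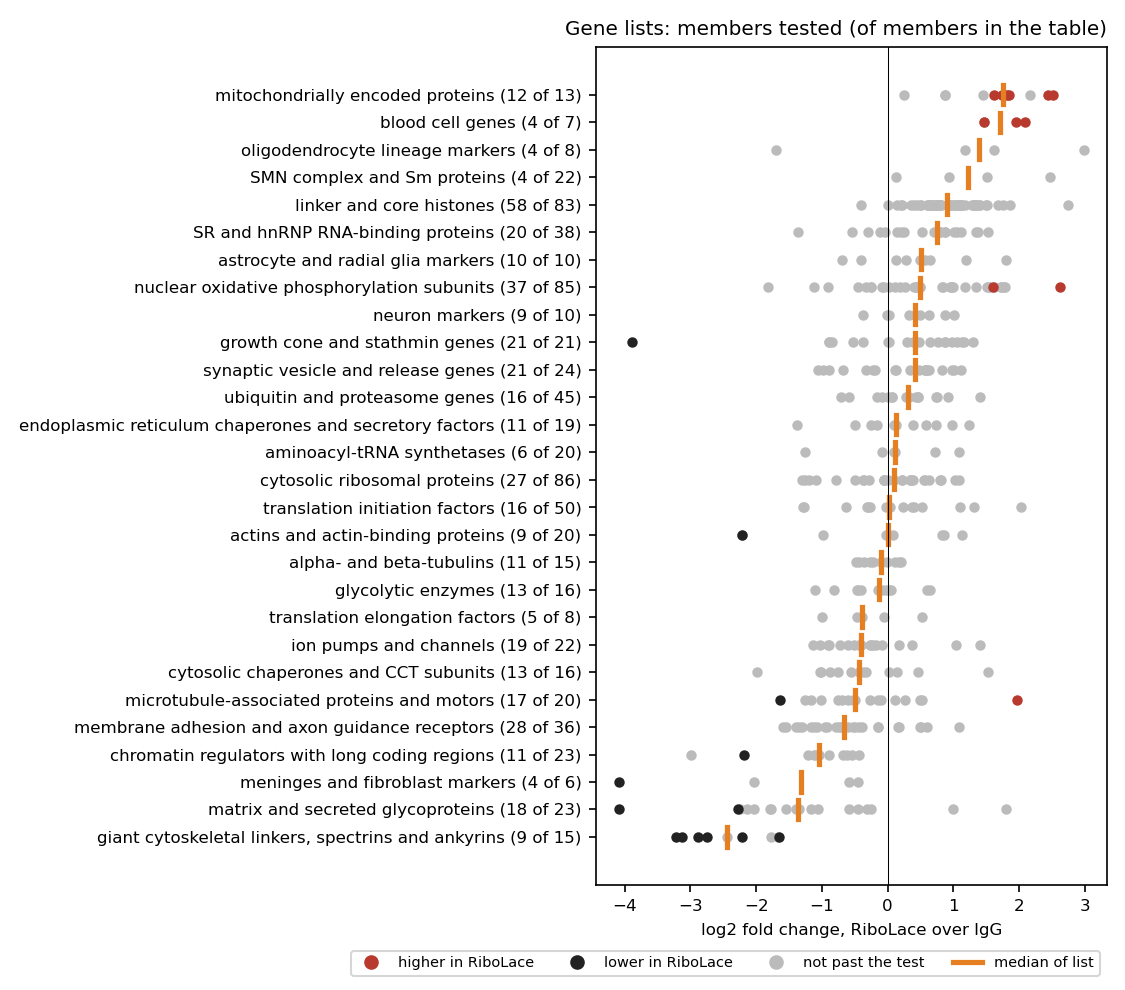
The log2 fold change of RiboLace over IgG for each tested member of the lists with at least 3 tested members, ordered by the median (orange). Red and black points passed the test as higher or lower in RiboLace, and the axis labels give members tested of members in the table. Mitochondrially encoded genes have a median of 1.76 and giant linkers, spectrins and ankyrins a median of -2.44.

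Genes found in a single capture were few and of low count. No gene with 15 or more RiboLace reads over both libraries lacked an IgG read, and the most RiboLace reads without any in IgG were 14. In the other direction, 12 genes had 15 or more IgG reads and none in RiboLace. Because IgG was deeper, 15 reads stand for a smaller share there than over both RiboLace libraries. The counts in the 2 directions therefore cannot be set against each other. Fnip2, which encodes a folliculin-interacting protein, had 20 IgG reads. Its IgG value was 2.94 times a floor of 3 counts over the 2 pooled RiboLace libraries. By the same floor the ratio was 2.79 for the mismatch repair gene Msh6, and 2.64 for the phosphatase gene Mtmr2 and the axon guidance gene Slit3. These genes were picked for having no RiboLace read, and the ratios leave out the counting error of the IgG reads. The ratios are thus descriptions and not bounds. All 4 had reads in both polysome libraries, between 44 and 212.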

How the data were processed

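The authors deposited raw read counts per Ensembl transcript, per the file headers, for 8 ribosome profiling libraries (109463 transcripts of 45578 genes). The submitters' processing notes name Trimmomatic 0.36, SAMtools, Bowtie2 2.2.6 and the build GRCm38.p4. Counts of 1 coding transcript per gene were fitted with edgeR 4.0.16 in R 4.3.3 (TMM, robust quasi-likelihood, two-sided, filterByExpr over the 3 libraries, minimum count 10). The fit held all 8 libraries in 4 groups with 4 residual degrees of freedom, and p-values were adjusted by Benjamini-Hochberg over 1412 genes. CPM per gene are TMM-scaled, and intervals are exact. Members and the 31 gene lists were chosen with earlier results of these data known. The text names Smn1, 12 called genes each way, by size of change and with a mean of at least 10 reads, the 6 genes with most RiboLace reads, list members by smallest p, and genes read in 1 capture alone, passing over predicted genes, and 1 gene is not reported here. Tested on simulated counts for RiboLace over IgG (1412 genes), the fit found 18 of 100 true 2-fold changes, 73 of 100 true 4-fold changes and 8 false ones. The simulation gave all 8 libraries the same mean profile apart from the set changes, drew IgG with the fitted spread and kept the gene set fixed. It cannot speak for a different IgG spread or for selection by the filter. Alternatives included DESeq2 1.42.0 and limma 3.58.1 (voom). Nothing states that same-numbered replicates share an animal, and p-values measure the spread between these samples.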

Additional observations from a re-analysis of the deposited data

Results flagged for a closer look

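Reads on noncoding RNA, which the comparison of coding genes did not use, were higher in RiboLace than in IgG for 6 of the 7 genes examined: each RiboLace library's 95% exact Poisson interval lay above that of IgG. The 7 were picked for at least 100 reads in each RiboLace library, so the count of 6 is no support for a general excess. The values are reads per 1000000 coding reads and cover counting error only. The mitochondrial ribosomal RNA mt-Rnr2 had a mean of 47259 in RiboLace against 33693 in IgG (ratio 1.40), but SMN replicate 2 held 52485, more than either RiboLace library, and polysomes 809 and 757. For mt-Rnr1 the interval of RiboLace replicate 1 overlapped that of IgG and the interval of replicate 2 lay above it. Rpph1, the RNA of ribonuclease P, had 2818 in RiboLace against 426 in IgG (ratio 6.62), and Rmrp, the RNA of ribonuclease MRP, had 4261 against 1089 (ratio 3.91). The antibody pull-downs varied: SMN replicates 1 to 3 held 304, 1440 and 479 of Rpph1 and 817, 1846 and 900 of Rmrp. Polysomes held far less than RiboLace, 46.9 and 51.4 of Rpph1 and 60.2 and 51.4 of Rmrp. The signal recognition particle RNA copies Rn7s1, Rn7s2 and Rn7s6, which may share reads, had 4515, 4420 and 2699 in RiboLace against 2671, 2661 and 1268 in IgG. SMN replicate 3 held 3108, 3096 and 1443 of these, and the polysome libraries between 16.8 and 43.3.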

How the results depend on the processing

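Genes higher and lower in RiboLace numbered 19 and 26, and 34 and 48 with DESeq2, 126 and 238 with the RiboLace and IgG libraries alone, and 12 and 47 with counts summed per gene. Without the polysome libraries 7 were higher, with no filter 99 were lower (14259 genes tested), with the longest coding transcript 52 were lower, and with genes chosen on polysome reads, added after seeing the data, 3 were higher and 11 lower. Leaving out 1 library at a time gave 1 to 172 higher and 2 to 235 lower. A replicate block gave 18 higher and 27 lower, of which 13 and 18 were among the 19 and 26. RiboLace and IgG share a single number, so whether the numbers pair samples could not be checked. The median log2 fold change of coding regions of 4800 bases or more minus that of those under 600 was -2.06, and -1.77 with no filter, -2.31 with a minimum count of 50, -2.18 with the longest coding transcript and -1.87 with genes chosen on polysome reads. Tubb5 turned to -0.13 with no filter and -0.0378 with a minimum count of 50, and Rpl10, at 1.09, ranged between -0.41 and 1.72 when 1 library was left out. Of 28 list medians, 20 kept their sign in every setting that gave one. The causes were not tested. RiboLace depth limits the comparison, since a gene needs about 209 CPM to be tested.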
